A study of Mus musculus with 283 samples.

Results

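The genes described here are those of mitosis and cytokinesis, a list of 40 mouse genes that act between entry into mitosis and the separation of the daughter cells. A gene counts as measured where at least 1 probe set is annotated to its symbol and to no other. Where there were several, the one that was brightest on average was used. By that rule 37 of the 40 genes were measured, out of 15224 genes in all. Ccnb1, Cenpf and Ncapg had no probe set of their own and are not analysed here.

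A dividing cell enters mitosis when the kinase Cdk1 is switched on by its cyclins, and leaves it when the anaphase-promoting complex, activated by Cdc20, has those cyclins destroyed. In between, Aurora and Polo kinases build the spindle, kinetochores join chromosomes to it, a checkpoint holds the cell until every chromosome is attached, and the midzone and its scaffold proteins pinch the daughters apart. Most of these genes are transcribed late in the cell cycle, from promoters that often hold the cell cycle genes homology region (CHR) and CCAAT boxes, and so their transcript levels are widely read as a sign of dividing cells. In lymphoid organs these genes are known to be high in activated lymphocytes such as germinal centre B cells, and in the mouse spleen also in the precursors of red cells.

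Promoter windows from RefSeq (GRCm38.p6, 250 bases before to 50 after the gene's start) were found for 30 of the 37 measured genes. Of these 30 genes, 80.0% held the CHR letters TTTGAA or TTCGAA on either strand, against 21.7% of all genes with a window. CCAAT on either strand was in 70.0% against 41.1%, at least 2 CCAAT in 50.0% against 13.3%, and both CHR and CCAAT in 66.7% against 8.6%. A match is a description of the letters and not a binding site. The 4 windows below are those of the genes on which the results turn: Cdc20 and Cdk1 had the largest differences between tumour and culture, Mki67 the smallest, and Cep55 was the gene whose change differed between lymph node and spleen. They lie at chr4:118437294-118437593 (Cdc20), chr10:69352863-69353162 (Cdk1) and chr7:135716330-135716629 (Mki67), all on the minus strand, and at chr19:38054734-38055033 (Cep55, the first of 2 start sites) on the plus strand. Capitals mark the CHR letters TTTGAA, which read TTCAAA where they lie on the opposite strand, and CCAAT, which reads ATTGG there. All are written 5′ to 3′ on the gene's strand.
Cdc20: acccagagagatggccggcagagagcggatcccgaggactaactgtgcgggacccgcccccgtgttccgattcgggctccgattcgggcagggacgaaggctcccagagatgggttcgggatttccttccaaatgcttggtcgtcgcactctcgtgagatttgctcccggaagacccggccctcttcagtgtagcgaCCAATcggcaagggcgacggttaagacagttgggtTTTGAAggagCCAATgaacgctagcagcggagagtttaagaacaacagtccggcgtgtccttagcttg
Cdk1: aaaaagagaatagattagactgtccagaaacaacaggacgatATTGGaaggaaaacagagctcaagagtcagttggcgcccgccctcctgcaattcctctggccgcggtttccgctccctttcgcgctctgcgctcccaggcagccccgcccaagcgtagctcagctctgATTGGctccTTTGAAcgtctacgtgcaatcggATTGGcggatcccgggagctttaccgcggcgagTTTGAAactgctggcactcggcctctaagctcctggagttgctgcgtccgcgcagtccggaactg
Mki67: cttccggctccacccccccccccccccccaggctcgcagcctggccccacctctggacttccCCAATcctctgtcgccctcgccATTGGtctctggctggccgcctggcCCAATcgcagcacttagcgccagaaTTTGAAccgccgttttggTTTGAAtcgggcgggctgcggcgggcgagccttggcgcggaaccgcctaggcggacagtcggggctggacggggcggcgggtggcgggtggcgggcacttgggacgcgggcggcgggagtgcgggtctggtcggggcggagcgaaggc
Cep55: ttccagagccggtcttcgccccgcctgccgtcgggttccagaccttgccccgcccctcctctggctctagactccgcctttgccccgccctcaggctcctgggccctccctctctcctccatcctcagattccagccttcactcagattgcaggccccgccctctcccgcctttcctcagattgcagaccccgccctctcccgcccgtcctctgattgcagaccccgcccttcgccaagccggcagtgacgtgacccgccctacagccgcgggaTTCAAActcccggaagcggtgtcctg
The Cdc20 window held 1 CHR and 2 CCAAT, those of Cdk1 and Mki67 each held 2 CHR and 3 CCAAT, and the Cep55 window held 1 CHR and 0 CCAAT.

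The study profiled transplanted mouse tumours, the lymph node draining each tumour, and the spleen of the same animals on exon arrays, together with the cultured lines and organs of tumour-free mice. Tumours of 15 models were grown from lines injected into mice of the strain the line came from, and organs were taken at a set average tumour size. There were 77 tumours, 92 lymph nodes, 98 spleens and 16 cultures, 283 arrays in all. BALB/c females carried 4T1 (mammary), CT26 (colon) or Renca (kidney) tumours, and DBA/2J females carried P815 (mastocytoma). C57BL/6J males carried TRAMPC1 or TRAMPC2 (prostate). C57BL/6J females carried B16F0 or B16F10 (melanoma, each from 2 sources), LL2 (Lewis lung), MC38 (colon), EL4 (lymphoma), TC1 (lung epithelium) or PAN02 (pancreas, grown in the pancreas and with no node group). Each group held 5 animals, apart from MC38 (8 tumours, 8 spleens and 7 nodes) and PAN02 (4 tumours). The 40 organs of tumour-free mice were 5 nodes and 5 spleens from each of the 4 kinds of host, and these are the only controls of all models in that host. Each cultured line was measured once, TC1 had no culture here, and ID8 and Hepa1-6 were measured in culture only. The ages of the animals are not given in the labels used here. Each line is a single transplantable line, so the tumours of a model are repeats of a line and not separate cancers, and the labels do not say whether a node was dissected free of tumour.

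Levels are log2 values, on which a difference of 1 is a doubling, and array medians ran from 5.19 to 5.66. A probe set's level was not set against another's. A gene was called higher or lower when limma gave an adjusted p below 0.05 over all genes tested and the log2 difference was at least 1 in size. The number of arrays limits the precision of each value.

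Some organ libraries stood apart from their labels. In 2 of the 5 tumour-free nodes of C57BL/6J females (replicates 2 and 4) the mean of genes that mark spleen was 6.42 and 6.52, against 4.86 to 5.68 in all other nodes. In 2 of the 5 tumour-free spleens of the same hosts (replicates 1 and 3) the spleen genes lay below the node genes, by -0.82 and -1.38. Line genes were the 20 per line that stood highest in its tumours and culture against all tumour-free organs. Their mean exceeded every control by more than 0.5 in 12 draining nodes. These were 4T1 replicate 36, CT26 replicates 28 and 29, Renca replicates 21, 22 and 24, B16F0 from ECACC replicate 6, and all 5 EL4 nodes. In 4T1 replicate 36 the line genes were at 8.12, against 8.26 in the tumours and at most 4.91 in tumour-free nodes. Line genes were also above the controls in 5 spleens, 4 of PAN02 and 1 of TRAMPC1. In 2 further tumour-free nodes, replicate 5 of the C57BL/6J females and replicate 5 of the DBA/2J females, T and B cell genes were low, with a mean of 6.27 and 4.50 against 7.66 to 8.33 in the nodes that do not stand apart. Adipocyte genes were at 8.06 and 9.45 on these arrays. The same lymphocyte genes were at 4.57 to 5.02 in the 4T1, CT26 and Renca nodes with line genes. In the 5 EL4 nodes the T cell list was at 7.57 to 7.79 and the B cell list at 7.85 to 8.50. In replicate 6 of B16F0 from ECACC these lists were at 8.35 and 8.56. Results that use these libraries are given with and without them, and without them 2 tumour-free nodes and 3 tumour-free spleens of C57BL/6J females remained. In bulk samples such as these, fewer cells of a type and less RNA per cell cannot be told apart.

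Taking the median over the 37 genes on each array, cultures lay highest, at 7.86 to 8.70 with a middle value of 8.48. Tumours ran from 5.73 to 8.03 around 7.31. Tumour-bearing spleens ran from 4.93 to 7.90 around 6.28, and tumour-free spleens from 4.76 to 7.35 around 5.94. Draining nodes ran from 4.81 to 7.74 around 5.76, and tumour-free nodes from 4.48 to 5.78 around 5.07. Neighbouring kinds of sample overlapped, and every tumour-free node lay below the lowest culture and below the median tumour.

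**Figure D1:**
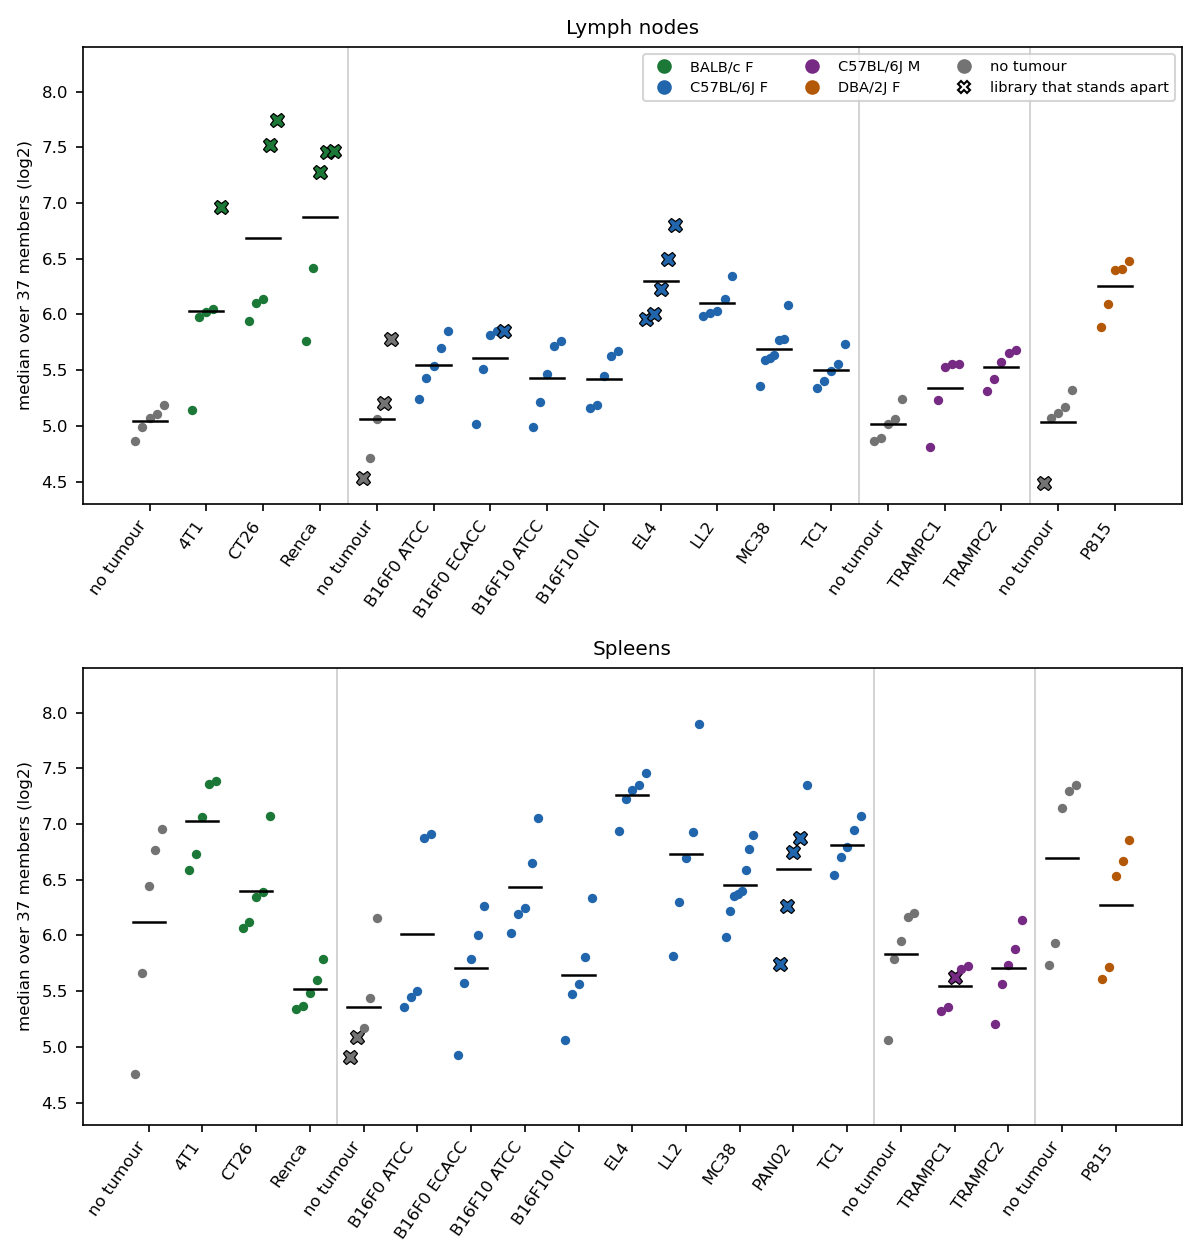
Median log2 level over the 37 mitosis genes (vertical axis) on every lymph node array (top) and spleen array (bottom), by group, coloured by host, with bars at group means, tumour-free organs in grey and crosses for libraries that stand apart. Tumour-free nodes sit at 4.48 to 5.78 and tumour-free spleens spread from 4.76 to 7.35.

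The first comparison asked how a tumour grown in the animal differs from the same line in culture. Mitosis genes were lower in tumours: 31 of the 37 were called lower and 0 higher over the 10 families of lines that had both (the 4 B16 lines count as 1 family, as do both TRAMP lines). Of all genes tested, 11.3% were called lower. The median difference over the 37 genes was -1.29, against -0.26 over all genes tested. The 0 higher stands beside 36 genes with an unadjusted limma p below 0.05, all of them lower.

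The switch that drives entry into and exit from mitosis fell furthest, with 6 of 6 genes called lower. Cdc20, the activator of the anaphase-promoting complex, read 7.57 to 8.47 in cultures with a median of 7.83, and 4.29 to 6.84 in tumours with a median of 5.70. No tumour reached the lowest culture. Its difference was -2.29 ± 0.18 (SE, 10 families, limma adjusted p = 4.17e-07). Cdk1, the mitotic kinase itself, read 9.12 to 10.11 around 9.67 in cultures and 6.02 to 8.90 around 7.62 in tumours, again without overlap. Its difference was -2.03 ± 0.17 (adjusted p = 5.2e-07). Of the same role, Cdca3, a trigger of mitotic entry, fell by 1.59, Ube2c, the ubiquitin-conjugating enzyme of the anaphase-promoting complex, by 1.40, and the cyclins Ccnb2 and Ccna2 by 1.35 and 1.07.

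Among mitotic kinases and the checkpoint, 5 of 6 were called lower. Plk1, the Polo kinase, read 7.40 to 9.03 around 8.51 in cultures and 5.35 to 7.99 around 6.78 in tumours, which overlap, and its difference was -1.72 ± 0.20 (adjusted p = 6.88e-06). Aurka, the kinase of spindle poles, fell by 1.70, and the checkpoint genes Bub1, Bub1b and Ttk fell by 1.36, 1.36 and 1.22. Mad2l1, whose protein holds back Cdc20 until chromosomes are attached, was not called at -0.82 ± 0.15.

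All 3 genes of the chromosomal passenger complex, which corrects faulty attachments and later marks the midzone, were called lower. Birc5 (survivin) read 8.59 to 9.89 around 9.57 in cultures and 6.76 to 8.86 around 8.18 in tumours, with a difference of -1.43 ± 0.19. Its partners Aurkb and Cdca8 (borealin) fell by 1.24 and 1.22.

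At the centromere and kinetochore 4 of 6 were called. Spc24, of the NDC80 complex that grips microtubules, read 7.11 to 8.72 around 8.22 in cultures and 5.12 to 7.43 around 6.56 in tumours, a difference of -1.65 ± 0.17 (adjusted p = 2.35e-06). Its complex partners did not move alike in size: Nuf2 fell by 1.41, while Ndc80 stood at -0.92 ± 0.15 and Spc25 at -0.76 ± 0.09, neither of them called. Cenpa, the centromeric histone, fell by 1.34 and the motor gene Cenpe by 1.06.

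Spindle motors and assembly factors had 5 of 6 called. Hmmr, a spindle-pole protein, read 7.92 to 9.04 around 8.63 in cultures and 4.03 to 8.15 around 7.11 in tumours, a difference of -1.67 ± 0.21 (adjusted p = 1.93e-05). The spindle assembly factor Tpx2 fell by 1.33, the microtubule-bundling Dlgap5 by 1.21, the kinesin Kif2c by 1.19 and Kif11, the motor that pushes poles apart, by 1.08. Nusap1, a spindle-binding protein, was not called at -0.99 ± 0.16.

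All 7 midzone and cytokinesis genes were called lower, from -1.43 ± 0.20 for Ect2, which activates RhoA at the furrow (cultures 7.11 to 9.05 around 8.37, tumours 5.22 to 8.04 around 7.03), to -1.12 ± 0.21 for the ring scaffold gene Anln. Between them lay Cep55 (abscission scaffold, -1.29), Shcbp1 (-1.29), the kinesins Kif20a (-1.26) and Kif23 (-1.23), and the microtubule bundler Prc1 (-1.21).

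The genes of chromosome structure and surface split. Ncaph, a condensin subunit, read 7.17 to 8.29 around 7.87 in cultures and 4.76 to 7.32 around 6.65 in tumours, and fell by 1.34 ± 0.14. Top2a, the topoisomerase that untangles sister chromatids, was not called at -0.43 ± 0.16 (adjusted p = 0.0428). Mki67, which coats mitotic chromosomes and is the usual histological marker of dividing cells, was at -0.23 ± 0.13 (adjusted p = 0.161). Its levels were 9.51 to 10.48 around 10.18 in cultures and 8.49 to 10.60 around 9.97 in tumours, almost wholly overlapping. The sign of these last values, for Mki67 and Top2a, turned with the scaling: after a further quantile normalisation of the arrays Mki67 stood at 0.29 and Top2a at 0.16, while Cdc20 and Cdk1 stayed called at -1.49 and -1.37. Under that scaling only these 2 of the 37 were called lower (0.483% of all genes), and the median over the 37 was -0.55 while that over all genes moved from -0.26 to -0.02. Cdc20 and Cdk1 lay lowest and Mki67 highest under both scalings, while the number of genes called depended on the scaling.

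**Figure D2:**
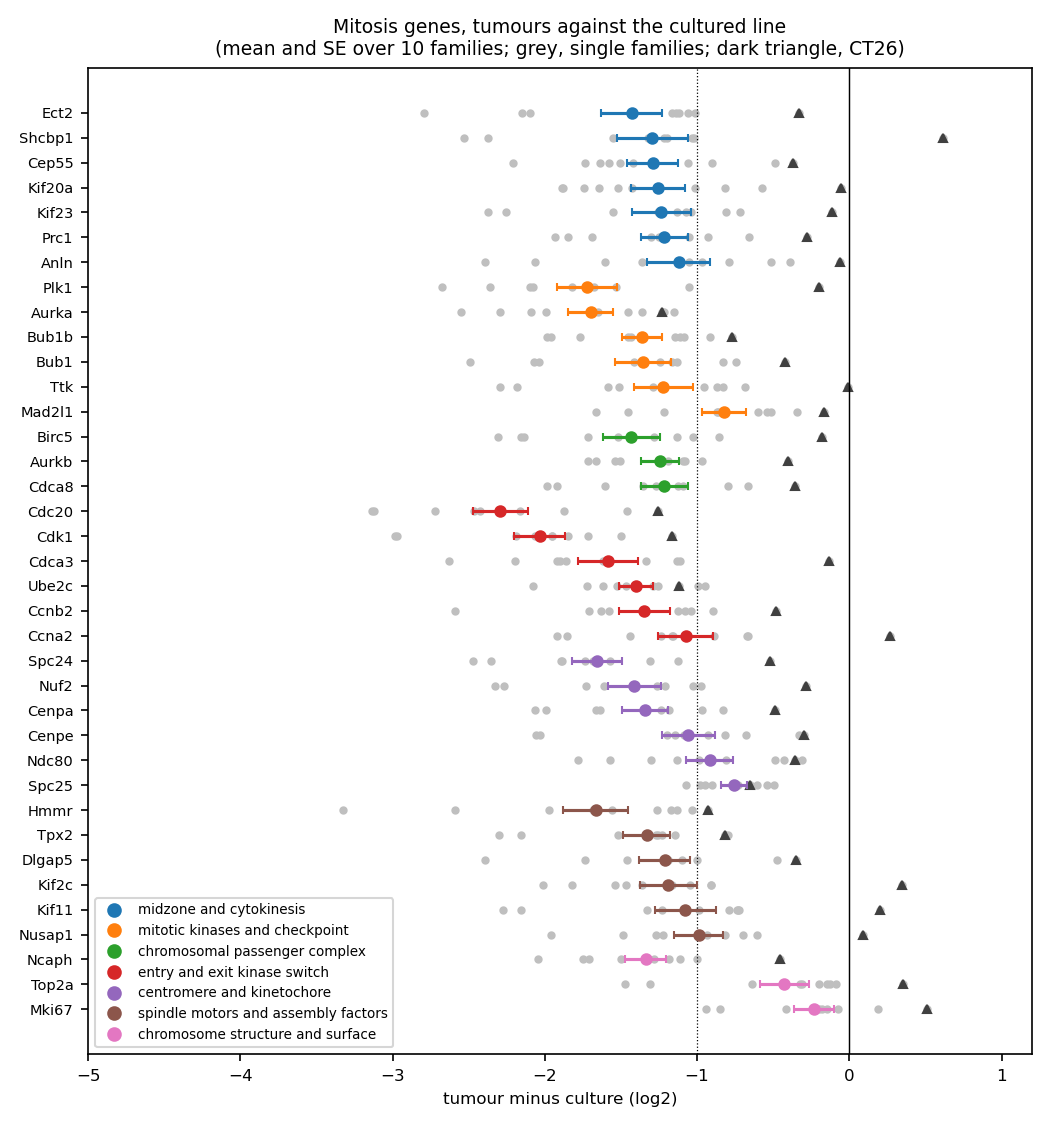
Tumour minus culture log2 difference (horizontal axis) for each of the 37 mitosis genes, with coloured points for the mean and SE over 10 families, grey points for single families, dark triangles for CT26 and a dotted line at -1. Cdc20 and Cdk1 lie furthest below 0 at -2.29 and -2.03, and Mki67 lies nearest to it at -0.23.

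The size of the difference varied among families. With 1 culture a line these values have no replicate check. All 37 genes were below their culture in 8 of the 10 families. The median over the genes was -2.07 in PAN02 and -2.07 in TRAMP-C, -1.58 in 4T1, -1.29 in LL2, -1.22 in B16, -1.17 in P815, -1.04 in Renca, -0.999 in EL4, -0.91 in MC38 and -0.33 in CT26. In CT26 the 37 genes moved no further than all genes did (-0.35), and 7 of them were above the culture. The CT26 culture had the lowest median level of all cultures, 7.86. Cdc20 fell in every family, by 1.25 in CT26 up to 3.14 in TRAMP-C. Mki67 was above its culture in CT26 (0.51) and Renca (0.19).

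Genes of related function and of other cell types moved in the same comparison. Of 50 other mitosis genes 33 were called lower (median -1.12), with Cenpp, Nek2 and Sgo1 at -1.78, -1.64 and -1.57. Of 33 DNA replication genes 25 were called lower (median -1.22), with Gins1, Rfc4 and Mcm3 at -2.02, -1.87 and -1.68. Of 18 regulators of mitotic transcription only Mybl2 (-1.76), a subunit of the complex that activates late cell cycle promoters, and E2f8 (-1.09) were called. Macrophage genes were called higher in 11 of 11, with list means of 4.15 to 4.99 in cultures and 4.38 to 8.67 in tumours (median 2.85, Ctss 4.70, Ccr2 4.42 and Tyrobp 4.18), fibroblast and matrix genes in 7 of 11, with list means of 4.38 to 6.95 and 4.81 to 7.97 (Dcn 4.05, Postn 3.23, Lum 3.00) and endothelial genes in 4 of 10 (Cdh5 2.28). Their part in the lower mitosis values was not tested.

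The second comparison asked how the models' tumours differ from each other. All 37 genes differed among the 15 models by the F test of limma with a range of model means of at least 1, as did 52.8% of all genes tested. The range between the highest and lowest model mean was widest for Shcbp1 (2.55), Anln (2.26), Hmmr (2.20), Dlgap5 (2.17), Cenpe (2.11) and Ect2 (2.10), and narrowest for Spc25 (1.17), Cenpa (1.21) and Spc24 (1.23). The median range was 1.83 over midzone genes, 1.84 over spindle genes and 1.31 over the passenger complex.

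The median level over the 37 genes was highest in MC38 at 7.65 ± 0.32 (SD, n = 8), then TC1 at 7.64 ± 0.08, CT26 at 7.55 ± 0.09, B16F0 from ECACC at 7.54 ± 0.11 and from ATCC at 7.43 ± 0.36, and B16F10 from ATCC at 7.40 ± 0.31 and from NCI at 7.31 ± 0.29. P815 followed at 7.29 ± 0.20, EL4 at 7.27 ± 0.19, Renca at 7.17 ± 0.31, LL2 at 7.02 ± 0.13 and 4T1 at 6.77 ± 0.20. The lowest were TRAMPC2 at 6.46 ± 0.29, TRAMPC1 at 6.41 ± 0.16 and PAN02 at 6.20 ± 0.32 (n = 4). Neighbours in this order lay within the larger of their SDs, other than LL2 above 4T1 and 4T1 above TRAMPC2. No tumour of either TRAMP line or PAN02 reached the lowest tumour of MC38 (6.95).

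**Figure D3:**
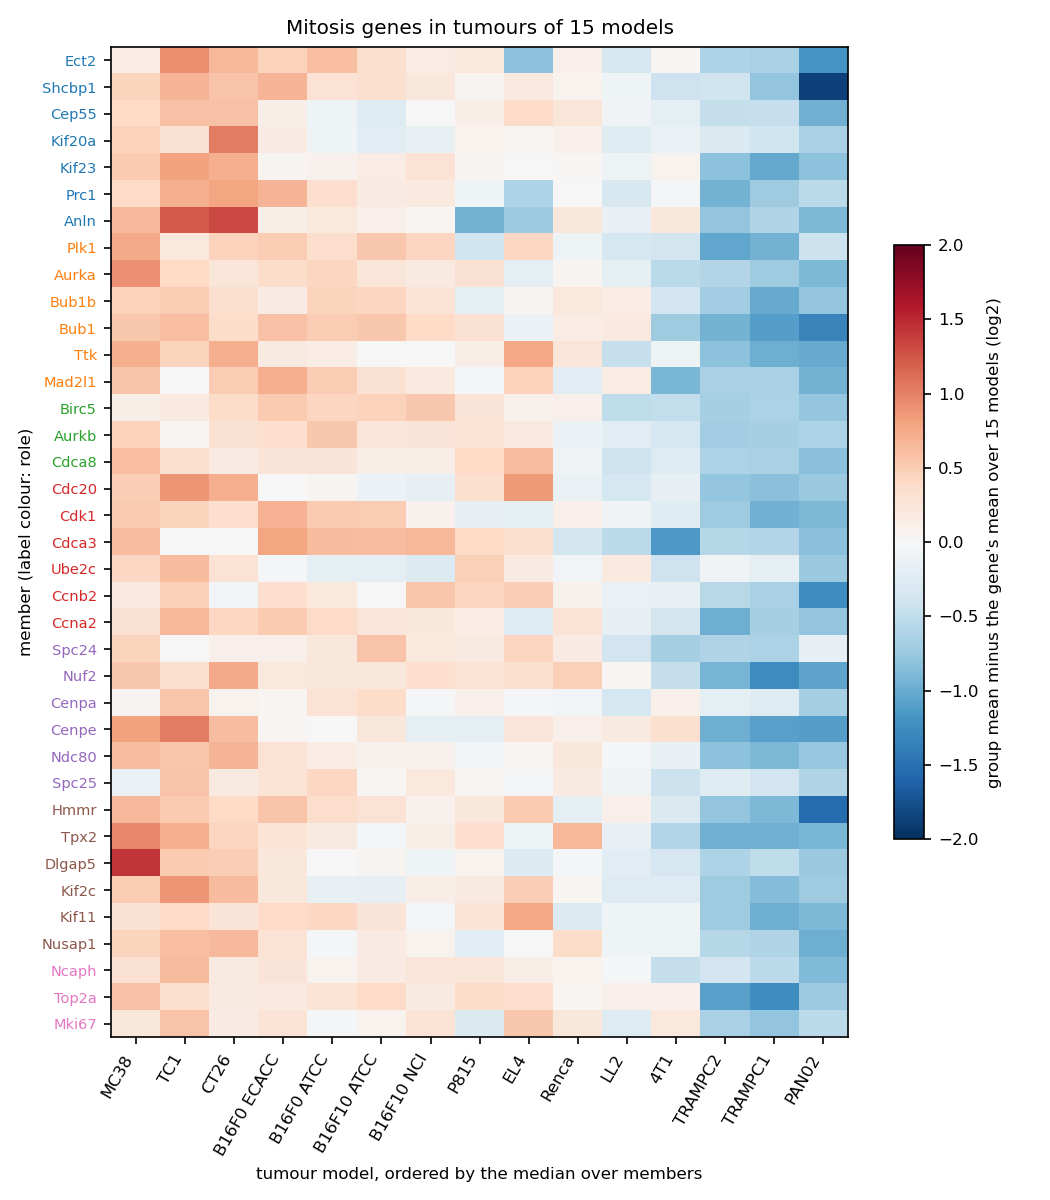
Mean log2 level of each of the 37 mitosis genes (rows, label colour for role) in the tumours of each of the 15 models (columns), as the difference from the gene's mean over models, with red for higher and blue for lower. PAN02 and both TRAMP models are low across nearly all genes, and single genes such as Anln in P815 depart from the rest of their model.

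Against the mean of the other families, 13 of the 37 genes were called lower in PAN02 (2.46% of all genes) and 8 in TRAMP-C (0.626%). In PAN02 Shcbp1, a midbody protein, read 5.90, 4.67, 5.22 and 5.95 in the 4 tumours, and all 4 lay under the median tumour of 7.55. Its difference was -1.99 ± 0.22 (limma adjusted p = 3.23e-11). Hmmr read 6.33, 4.03, 4.91 and 5.92, a difference of -1.69 ± 0.25, and Bub1 was at -1.40 ± 0.22. The other 10 called in PAN02 were Ccnb2, Cenpe, Ect2, Nuf2, Ttk, Cep55, Nusap1, Tpx2, Anln and Kif11. In TRAMP-C Top2a read 7.59, 8.08, 8.38, 8.03 and 7.61 in TRAMPC1 and 8.35, 7.76, 7.35, 8.52 and 8.46 in TRAMPC2. These 10 tumours all lay under the median tumour of 9.37, and the difference was -1.32 ± 0.11 (adjusted p = 2.42e-16). Nuf2 and Cenpe were both at -1.24, followed by Tpx2 (-1.11), Bub1 (-1.08), Kif23, Plk1 and Ttk (each -1.06). Macrophage and fibroblast genes were higher than in other families in these tumours, with medians of 0.71 and 0.53 in PAN02 and 0.72 and 1.24 in TRAMP-C. In B16 tumours, where none of the 37 was called, those medians were -2.11 and -1.44. The part of these cells in the mitosis values was not tested.

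Elsewhere single genes were called. MC38 had 3 called higher (2.45% of all genes): Dlgap5 at 1.52 ± 0.09 (adjusted p = 3.27e-22), Aurka at 1.03 and Tpx2 at 1.01. Dlgap5 read 7.57 in replicate 59 of the 8 MC38 tumours and 8.37 to 8.73 in the others. TC1 had 3 called higher (3.21%), Anln at 1.32, Ect2 at 1.07 and Cenpe at 1.02. CT26 had 2 (1.98%), Anln at 1.42 ± 0.12 and Kif20a at 1.06 ± 0.17. 4T1 had 1 called lower (1.35%), Cdca3 at -1.12 ± 0.13, and P815 1 (2.36%), Anln at -1.07 ± 0.12. B16, EL4, LL2 and Renca had 0 called by limma, with 24, 19, 14 and 3 of the 37 at an unadjusted p below 0.05.

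Anln, which encodes the anillin scaffold of the contractile ring, moved apart from the other genes of its models. It read 6.53, 6.86, 6.63, 6.64 and 6.84 in P815 tumours and 8.73 to 9.07 in CT26 tumours. The P815 tumours lay wholly below the CT26 tumours, although the mean of the median mitosis level was 7.29 in P815 and 7.55 in CT26. For departures, each gene's mean over families was first subtracted, for tumours and for cultures separately. Taken then relative to the family's median over the 37 genes, Anln departed by -1.14 in P815 tumours and by -0.95 in the P815 culture. The same pair was 0.94 and 0.91 in CT26, and -0.88 and -1.34 in EL4. In TC1, with no culture, Anln departed by 0.79. Ect2 in EL4 (-0.91, culture -1.08), Prc1 in EL4 (-0.74, culture -0.78), Cdca3 in 4T1 (-0.67, culture -0.63) and Shcbp1 in PAN02 (-1.01, culture -0.58) had the same sign in the cultured line. Dlgap5 in MC38 departed by 0.90 in tumours and 0.39 in culture. Hmmr in PAN02 was the exception among these 10 largest departures, at -0.73 in tumours and 0.02 in culture. The cultures are 1 array each, so these pairs are values with no test.

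The third comparison set draining nodes against nodes of tumour-free mice of the same strain and sex. Mitosis genes were higher in draining nodes: 18 of the 37 were called higher and 0 lower over all models, where 0.386% of all genes were called higher (52 of 13469). The median difference was 0.95, against 0.03 over all genes. All 37 differences were above 0. The errors and p-values of this comparison cover mice and not models, whose medians ran from 0.39 in TRAMP-C to 1.89 in Renca. Without the libraries that stand apart 11 were called (0.148% of all genes), and the median was 0.79.

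The called genes came from every role. Of chromosome structure, Top2a read 6.05 to 9.89 around 7.77 in draining nodes and 4.65 to 7.85 around 6.54 in tumour-free nodes, a difference of 1.55 ± 0.18 (limma adjusted p = 1.25e-09). The highest tumour-free value, 7.85, came from replicate 4 of the C57BL/6J females and the next, 6.96, from their replicate 2, both of which hold spleen genes. Mki67 read 7.10 to 10.31 around 9.19 against 4.98 to 10.17 around 7.87, a difference of 1.47 ± 0.19. Here too the highest tumour-free value came from replicate 4 of the C57BL/6J females, and the lowest, 4.98, from their replicate 5, which is low in lymphocyte genes. Without the libraries that stand apart the differences were 1.32 for Top2a, 1.36 for Mki67 and 1.43 for Nuf2, the largest. Of the midzone, Shcbp1 was at 1.54 ± 0.20 (draining 3.81 to 8.20 around 5.47, tumour-free 2.89 to 5.85 around 4.51). Cep55, which recruits the abscission machinery to the midbody, was at 1.47 ± 0.14 (adjusted p = 2.48e-12). Cep55 read 4.20 to 7.74 around 5.58 in draining nodes and 3.23 to 5.06 around 4.58 in tumour-free nodes, so that the median draining node lay above every tumour-free node. Anln (1.06) and Prc1 (1.03) were the other midzone genes called.

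Of spindle genes Hmmr was at 1.53 ± 0.19 (draining 3.16 to 7.77 around 5.17, tumour-free 2.71 to 5.44 around 4.07), and Kif11, Nusap1 and Tpx2 were called at 1.30, 1.24 and 1.10. At the kinetochore Nuf2 was at 1.45 ± 0.17 (draining 4.16 to 8.34 around 5.74, tumour-free 3.71 to 5.78 around 4.69) and Cenpe at 1.41. Birc5 of the passenger complex was at 1.26 ± 0.16 (draining 4.46 to 8.52 around 6.50, tumour-free 4.55 to 6.58 around 5.45). Of the checkpoint Ttk was at 1.25 ± 0.16, Bub1 at 1.18 and Mad2l1 at 1.00, and of the entry switch Cdk1 was at 1.04 ± 0.15 (draining 4.67 to 8.48 around 5.79, tumour-free 4.74 to 5.81 around 5.14) and Ccnb2 at 1.01. All of these pairs overlapped. Mad2l1 and Ccnb2 lay at the threshold of 1. Over 101 alternative settings Mad2l1 ran from 0.80 to 1.26 and Ccnb2 from 0.67 to 1.17. For Cdk1 and Birc5 the tumour-free range lay wholly inside the draining range, and the draining medians of Cdk1, Birc5, Hmmr and Nuf2 lay below the highest tumour-free value.

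The smallest differences were those of Kif20a (0.44 ± 0.11), Cenpa (0.60 ± 0.09) and Kif2c (0.61 ± 0.12). Kif20a, a midzone kinesin, read 4.51 to 5.19 in tumour-free nodes. Its highest draining-node values, 7.21 and 6.97 in CT26 and 6.79, 6.69 and 6.79 in Renca, all came from nodes with line genes present, and no node without them exceeded 5.78.

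The models differed widely in the node. Models in one kind of host share their tumour-free nodes, so their counts are not independent. Renca nodes had 36 of the 37 called higher (6.64% of all genes), CT26 35 (2.11%), EL4 25 (1.9%), P815 24 (0.69%), LL2 15 (0.676%), 4T1 8 (0.178%) and MC38 2 (0.297%). B16 (0.245%), TC1 (0.126%) and TRAMP-C (0.0%) had 0 called by limma, with 14, 7 and 5 of the 37 at an unadjusted p below 0.05. The medians were 1.89 in Renca, 1.66 in CT26, 1.29 in EL4, 1.22 in P815, 0.98 in LL2, 0.94 in 4T1, 0.62 in MC38, 0.43 in TC1, 0.42 in B16 and 0.39 in TRAMP-C.

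Leaving out the libraries that stand apart reordered them. P815 had 22 called (0.579%), LL2 19 (0.512%), CT26 16 (0.445%, 3 nodes left), Renca 10 (0.193%, 2 nodes left), 4T1 9 (0.215%), B16 1 (0.0817%) and MC38 1 (0.119%), while EL4 had no node left. TC1 (0.0297%) and TRAMP-C (0.0%) had 0 called by limma, with 20 and 19 of the 37 at an unadjusted p below 0.05. The medians ran from 0.39 in TRAMP-C to 1.17 in LL2. The LL2 count turned on 3 of its 5 controls: it was 26 without the 2 tumour-free nodes that hold spleen genes, and 1 without replicate 5 alone. The share of all genes called at either setting is not given here, so these counts cannot be set against all genes. In Renca nodes T cell and B cell genes had medians of -1.92 and -2.30, with 6 of 8 and 6 of 7 called lower, and in CT26 -1.14 and -1.33. The part of tumour cells in these nodes' mitosis values was not tested. The 3 CT26 nodes left had median mitosis levels of 5.94 to 6.14 and the 2 Renca nodes 5.77 and 6.42, and the 4 nodes left of 4T1 ran from 5.14 to 6.05, against 4.86 to 5.18 in the 5 tumour-free BALB/c nodes. The lowest 4T1 node, at 5.14, lay within that range. By kind of host, 34 of the 37 were called in BALB/c females (1.62% of all genes) and 9 in C57BL/6J females (0.401%), and 14 (0.312%) and 6 (0.163%) without the libraries that stand apart.

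P815 nodes held no line genes above the margin, and the difference there did not depend on the tumour-free node low in lymphocyte genes. The median over the 37 genes was 5.88 to 6.47 in the 5 P815 nodes and 4.48 to 5.32 in the 5 tumour-free DBA/2J nodes, of which the lowest was replicate 5. For 33 of the 37 genes every P815 node lay above every tumour-free node, with or without replicate 5. The same held for 2.7% of all genes tested with that library and 3.58% without it. Cep55 read 6.84, 6.45, 6.46, 5.67 and 6.28 in P815 nodes against 4.13, 4.84, 4.60, 4.25 and, in replicate 5, 3.61 in tumour-free nodes. Top2a read 8.36, 8.65, 8.34, 7.80 and 8.03 against 6.21, 6.82, 6.51, 6.40 and 4.86. Without replicate 5 the differences were 1.88 ± 0.26 for Cep55, 1.82 ± 0.32 for Mki67 and 1.75 ± 0.30 for Top2a. The medians of the T cell and B cell lists were then 0.04 and 0.29 with 0 genes called, against 0.80 and 0.88 with it. Replicate 5 was left out for low values of these same genes, so those medians do not test cell content. Of 7 germinal centre genes 3 were called higher in P815 nodes, with or without that library. Adipocyte genes read 4.84 to 6.44 in P815 nodes and 5.84 to 7.70 in the other 4 tumour-free nodes, and their part was not tested.

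Over all models 10 of 50 other mitosis genes were called higher in draining nodes (Cenph 1.30, Knl1 1.19, Cenpk 1.15), and 0 of 33 DNA replication genes (median 0.54). Of 7 germinal centre B cell genes 2 were called higher, Mybl1 (1.84) and Rgs13 (1.13), and of 7 plasma cell genes 1, Jchain (1.44). With all libraries, the germinal centre list's median ran from 0.10 in 4T1 and B16 to 0.60 in P815. That of the plasma cell list ran from 0.13 in Renca to 0.90 in LL2. The T cell and B cell lists had medians of -0.11 and 0.06 over all models, with opposite signs among them. With all libraries, T cell medians ran from -1.92 in Renca to 0.80 in P815, and B cell medians from -2.30 to 0.88. In B16 they were 0.68 and 0.64 and in TC1 0.52 and 0.665, against mitosis medians of 0.42 and 0.43. Both share the C57BL/6J female controls, where the T cell list mean was 8.08 and 8.04 in replicates 1 and 3. It was 7.31, 6.96 and 6.17 in replicates 2, 4 and 5, which stand apart. The T cell mean was 7.57 to 7.88 in TC1 nodes and 7.64 to 8.36 in B16 nodes. The B cell mean was 7.76 and 7.98 in replicates 1 and 3, 8.30 to 8.48 in TC1 nodes and 7.71 to 8.90 in B16 nodes. Adipocyte medians were below 0 in every family with nodes, from -0.29 in TRAMP-C to -1.98 in P815. The part of these cells in the mitosis values was not tested.

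The fourth comparison set spleens of tumour-bearing mice against tumour-free spleens. Over all models only 3 of the 37 genes were called higher, where 0.231% of all genes were (31 of 13414), and 0 were lower. They were Birc5 at 1.23 ± 0.24 (limma adjusted p = 0.000452), Mki67 at 1.07 ± 0.21 (adjusted p = 0.000841) and Hmmr at 1.07 ± 0.24 (adjusted p = 0.00287). The median over the 37 was 0.69. Here too the errors and p-values cover mice and not models. Without the libraries that stand apart 1 was called (0.0522% of all genes), Birc5 at 1.21 (adjusted p = 0.0416). Genes were called within 1 of the 4 kinds of host, and whether hosts differed was not tested. Within C57BL/6J females 26 of the 37 were called (1.55% of all genes, median 1.30), 4 without the 2 spleens whose organ genes go against the label (0.328%) and 18 without all libraries that stand apart (1.06%). Within BALB/c females 0 were called by limma (0.112%, median 0.19), as in DBA/2J females and C57BL/6J males, and none of the 37 had an unadjusted p below 0.05 in these 3 kinds of host.

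Levels in the spleen varied more among tumour-free animals than in the node. Birc5 read 5.39 to 9.48 around 7.42 in tumour-bearing spleens and 4.53 to 8.97 around 6.69 in tumour-free ones. Mki67 read 8.23 to 11.59 around 10.21 against 7.23 to 11.13 around 9.92, and Hmmr 4.00 to 8.11 around 5.80 against 3.49 to 7.38 around 5.38. All of these overlapped over most of their range. In the 5 tumour-free BALB/c spleens Birc5 was 7.86, 7.08, 8.23, 7.93 and 5.39, and in those of DBA/2J mice 8.59, 8.97, 8.55, 6.17 and 6.59. Within each set some spleens stood more than 2 log2 units above others. Anln (0.93), Cdca3 (0.91), Nuf2 (0.97) and Bub1 (0.76) were the largest differences of their roles, all under the threshold of 1. The smallest were those of Cep55 (0.19 ± 0.12, adjusted p = 0.442), Cdc20 (0.32 ± 0.15) and Kif20a (0.35 ± 0.11).

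In EL4 spleens 36 of the 37 were called higher (3.45% of all genes). Birc5 was at 3.01 ± 0.49, Ccnb2 at 2.69 and Hmmr at 2.62. Birc5 read 8.74, 8.21, 8.16, 8.84 and 8.50 in EL4 spleens and 5.66, 6.77, 4.53, 5.00 and 5.44 in the tumour-free spleens of the same hosts, with no overlap. For 36 of the 37 genes every EL4 spleen lay above every tumour-free spleen, as for 7.78% of all genes tested, and the exception was Cep55, at 4.67 to 5.21 against 4.45 to 4.84 (0.29, not called). TC1 had 29 called (1.95%), LL2 28 (1.86%), PAN02 24 (1.6%) and MC38 19 (1.09%), all against the same 5 tumour-free spleens. 4T1 had 2 (0.581%), one of them Anln at 1.24. B16 (0.0596%), CT26 (0.127%), Renca (0.127%), P815 (0.0%) and TRAMP-C (0.0%) had 0 called by limma. Of the 37 genes, 19 in B16, 12 in Renca and 0 in CT26, P815 and TRAMP-C had an unadjusted p below 0.05. The median was negative in Renca (-0.57), P815 (-0.41) and TRAMP-C (-0.21).

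When the libraries that stand apart were left out, with 3 tumour-free spleens remaining for the C57BL/6J females, EL4 kept 36 called (2.74%) while TC1 fell to 1 (0.134%). LL2 (0.0%) and MC38 (0.00745%) fell to 0 called, with 35 and 32 of the 37 at an unadjusted limma p below 0.05. PAN02 had 1 spleen left. The medians were 1.17 in LL2, 0.90 in MC38, 1.74 in PAN02 and 1.27 in TC1. No TC1, LL2 or MC38 spleen was left out, so their counts depended on the 2 tumour-free libraries whose organ genes go against the label. The group mean of the median mitosis level in these controls was 5.35 with those libraries and 5.59 without them. The genes that mark spleen include Ermap and Hemgn, which are also red-cell precursor genes. The libraries left out were thus not chosen independently of red-cell precursor genes.

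A contrast within BALB/c females that uses no control showed how far tumour-bearing spleens differed from each other. Of the 37 genes 31 were called higher in 4T1 spleens than in Renca spleens (2.56% of all genes), with a median of 1.50. Birc5 read 9.05, 8.56, 8.62, 7.90 and 8.23 in 4T1 spleens and 6.53, 6.40, 5.45, 5.91 and 6.42 in Renca spleens, a difference of 2.33 ± 0.49 (limma adjusted p = 0.000408). Cdk1 (2.12) and Ccnb2 (2.06) followed. The tumour-free BALB/c spleens reached into both groups. This contrast was chosen after the values were seen.

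The level of the 37 genes in a spleen went with that of red-cell precursors. Over all 98 spleens the median of the 37 genes and the mean of 11 erythroid precursor genes had a Pearson correlation of 0.939 (Spearman 0.956, and 0.936 by Pearson without the 2 most extreme spleens). It was 0.959 over the 20 tumour-free and 0.932 over the 78 tumour-bearing spleens, 0.837 to 0.993 within the 4 kinds of host, and 0.928 for deviations from the group means. Each point is 1 array, on which both lists were measured, so these values describe the arrays. For 9 neutrophil granule genes the values were 0.725 overall and 0.426 for the deviations. With all libraries, 6 of 11 erythroid genes were called higher over all models (median 1.05, Hemgn 1.93, Slc4a1 1.71, Rhag 1.65). So were 4 of 9 neutrophil genes (median 0.95, Ngp 2.36). Per model the erythroid median was 2.90 in EL4, 2.39 in LL2, 2.38 in TC1, 1.75 in PAN02, 1.74 in MC38 and 1.33 in 4T1. It was negative in P815 (-0.43), TRAMP-C (-0.87) and Renca (-1.05), the 3 models whose mitosis median was negative too. EL4, LL2, TC1, PAN02 and MC38 share the tumour-free C57BL/6J female spleens, of which 2 stand apart. The erythroid list mean of these controls was 5.19 (4.53 to 6.79), against 6.17 to 7.60 in tumour-free spleens of other hosts. B16 spleens, with the same controls, had group means of 6.01 to 7.02. CT26 spleens were at 7.44 against 7.08 in tumour-free BALB/c spleens. In 4T1 spleens all 9 neutrophil granule genes were called higher (median 2.66) and 0 of 11 erythroid genes. The part of either cell type in the mitosis values was not tested.

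**Figure D4:**
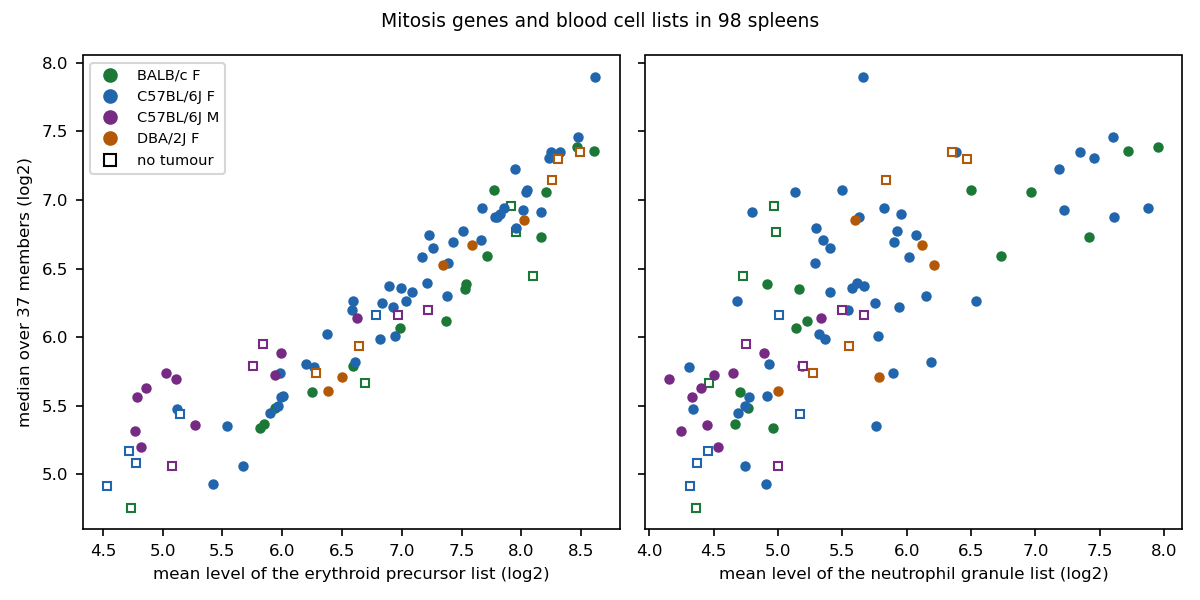
Median log2 level of the 37 mitosis genes in each of the 98 spleens against the mean of 11 erythroid precursor genes (left) and of 9 neutrophil granule genes (right), with tumour-free spleens marked. The points lie close to a line for the erythroid genes (Pearson 0.939) and more loosely for the neutrophil genes (0.725).

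Tumour-free organs already differed. In tumour-free mice 16 of the 37 genes were called higher in spleen than in node, where 0.729% of all genes were (95 of 13040), with a median of 0.90. Mki67 was at 1.78 ± 0.32 (limma adjusted p = 0.000115), Nusap1 at 1.52 ± 0.23, Ccna2, the cyclin of S phase and mitotic entry, at 1.48 ± 0.25, and Top2a and Kif11 at 1.40. Mki67 read 7.23 to 11.13 around 9.92 in these spleens and 4.98 to 10.17 around 7.87 in the nodes, which overlap. Cep55 differed least, at 0.30 ± 0.12 (adjusted p = 0.0934), followed by Kif20a (0.44) and Bub1b (0.50). Of the erythroid precursor genes 8 of 11 were called higher in spleen. By kind of host, 33 of the 37 were called in DBA/2J females (2.4% of all genes, median 1.63) and 13 in BALB/c females (1.13%, median 1.09). In C57BL/6J males (0.0613%, median 0.71) and females (0.0%, median 0.27) 0 were called by limma, with 24 and 0 at an unadjusted p below 0.05. Without the libraries that stand apart the median in C57BL/6J females was 0.59, with 0 called (0.184% of all genes) and 2 at an unadjusted p below 0.05, and in BALB/c females 20 were called (1.52%). Without the tumour-free libraries that stand apart 18 were called (1.04%) and the median was 0.95.

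Whether tumour bearing changed node and spleen by different amounts was tested directly. The test took the 10 families that have both organs, and so left out PAN02. Its errors again cover mice and not models. Of the 37 genes 1 was called, Cep55, with a node change of 1.47, a spleen change of 0.15 over these 10 families (0.19 with PAN02) and a difference between them of 1.32 ± 0.18 (limma adjusted p = 1.03e-07). Of all genes, 0.0872% were called higher in this test (12 of 13757). Cep55 read 3.75 to 5.93 around 4.92 in tumour-bearing spleens and 3.93 to 5.51 around 4.76 in tumour-free ones, ranges that nearly coincide. Shcbp1 (0.89 ± 0.28, adjusted p = 0.0444) and Mad2l1 (0.56 ± 0.18, adjusted p = 0.0455) passed the p but not the size, and Top2a (0.81 ± 0.27, adjusted p = 0.0654) and Cenpe (0.69 ± 0.26, adjusted p = 0.108) did not pass. The smallest were Spc25 (0.08), Cdca3 (0.10) and Kif20a (0.11), and the median was 0.35. Without the libraries that stand apart Cep55 was again the 1 gene called, at 1.13 ± 0.20 (adjusted p = 0.00118), beside 0.0363% of all genes.

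**Figure D5:**
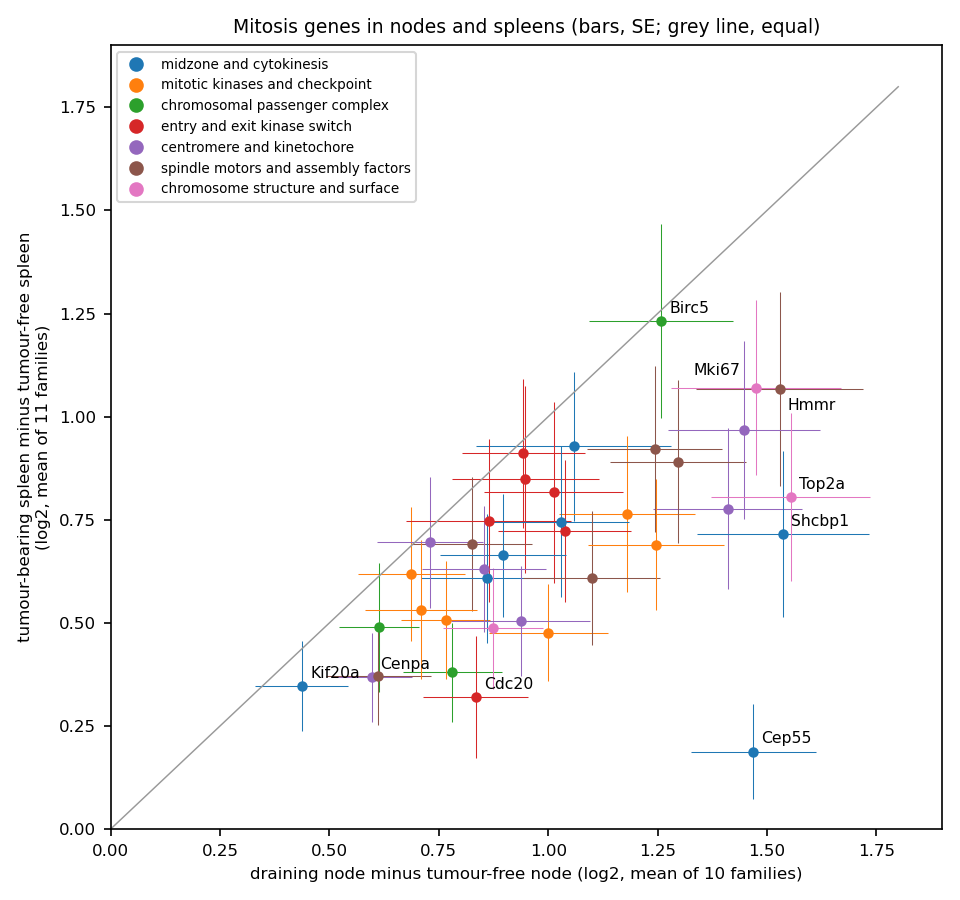
Tumour-bearing minus tumour-free log2 difference in the node (horizontal) against that in the spleen (vertical) for the 37 mitosis genes, coloured by role, with SE bars and a grey line where both are equal. Cep55 lies apart from the other genes, at 1.47 in the node and 0.19 in the spleen.

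Cep55 also stood apart from the other genes from spleen to spleen. Each gene was correlated over arrays with the median of the other 36, as a description, since all are read from the same arrays. In the 98 spleens the correlation had a median of 0.935, with Cep55 at 0.096 and the next lowest, Cdc20, at 0.788. In the 92 nodes the median was 0.914 and the lowest was Cenpa at 0.804. In the 77 tumours the median was 0.831 and the lowest Ube2c at 0.523, and over the 16 cultures the median was 0.493. In spleens with high levels of the other genes Cep55 was not correspondingly higher: it read 5.05, 4.31, 4.93, 4.86 and 5.03 in the 4T1 spleens, and 3.93 to 5.51 in tumour-free spleens. Cep55 lay near the filter value of 4.3 there, with medians of 4.92 in tumour-bearing and 4.76 in tumour-free spleens. This limits what it can show. Cdc20 lay lower still, with medians of 4.67 and 4.56. Among midzone genes Anln and Prc1 had correlations of 0.970 and 0.959 in the same spleens.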

How the data were processed

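Expression was measured on exon arrays in 283 samples, and each array gives 1 value per probe set. The authors deposited log2 values made with RMA, per the submitters' processing notes, which give no version. No genome build, and no list of the arrays normalised together, is given in the sources used here. Of 17831 probe sets, 15620 carried 1 gene symbol, 1370 several and 841 none in the platform annotation. Of those with 1 symbol, 15559 matched the RefSeq gene table.

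Linear models were fitted to all genes with limma 3.58.1 in R 4.3.3, and p-values were adjusted by Benjamini-Hochberg over all genes tested. To be tested, a gene had to exceed 4.3 (the 25th percentile over the whole table) on 4 or more arrays of the comparison. Tables and figures were made with Python 3.11.15, numpy 2.4.6, pandas 2.3.3 and matplotlib 3.10.9. Tumour minus culture was taken per family of lines, with families as replicates. Each organ was compared with organs of tumour-free mice of its own strain and sex. The change over all models is the mean over families, and its error covers mice and not models. The steps were tested on simulated data. Replicates are separate animals per the labels.

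Node and spleen with the same animal number come from 1 animal (92 animals have both). The deviations of the median over the mitosis genes from the group means correlated at 0.061 between these organs.

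Members and gene lists were chosen with earlier results of these data known. Full values are given for the gene with the largest difference of each role and for the 3 highest and 3 lowest genes. Genes of other lists are named where called, at most 3 a list, as are the 10 largest departures of a gene within a tumour family. Libraries were said to stand apart where 15 spleen and 15 node genes went against the label. They also did so where 20 genes of the tumour line exceeded every control by more than 0.5. A node did so too where its 15 T and B cell genes averaged below 7. Nodes with line genes that also averaged below 7 were counted under line genes alone. Leaving these libraries out, and the contrast of 4T1 with Renca spleens, were chosen after seeing the data. The other alternatives were another scaling, no filter, the mean of a gene's probe sets, another prior for the variance, lines as replicates, the animal as a block, single kinds of host and leaving out 1 library or family. No pair of arrays was identical.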

Additional observations from a re-analysis of the deposited data

Results flagged for a closer look

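In 4 of the 52 groups tested, 1 array lay far from the others of its group in the median log2 level of the 37 mitosis genes, where chance gives such an array in about 1 of 20 groups. All 4 are tumours, and each is the lowest of its group: replicate 9 of B16F10 from ATCC at 6.86, replicate 27 of CT26 at 7.39, replicate 59 of MC38 at 6.95 and replicate 3 of PAN02 at 5.73.

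The change with tumour bearing differed between node and spleen by limma's test of the difference for Cep55 (1.32), Shcbp1 (0.89) and Mad2l1 (0.56), each larger in the node. Of these Cep55 alone also passed the size of 1. In a direct contrast of groups chosen after the values were seen, 31 of the 37 genes were called higher in 4T1 spleens than in Renca spleens of the same strain and sex, as were 2.56% of all genes.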

How the results depend on the processing

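The counts in this section show how calls depend on the settings. Where the results above give no share of all genes, none is given here, and that share moved too. In Renca nodes it was 6.64% with all libraries and 0.193% without those that stand apart. Of the 37 genes, the 31 called lower in tumours than in cultures became 2 after quantile normalisation (0.483% of all genes), with a median of -0.55. That count ranged from 27 without PAN02 to 32 without CT26 (medians -1.39 to -1.19). In draining nodes 18 became 10 without libraries with line genes and 13 without the 2 tumour-free nodes low in lymphocyte genes. It became 11 without all libraries that stand apart. Within single hosts the counts were 34 (BALB/c, median 1.53, and 14 without libraries that stand apart), 9 (C57BL/6J females, and 6 without them) and 0 (C57BL/6J males, median 0.39, with 5 at an unadjusted limma p below 0.05). Leaving out 1 node gave 14 (without tumour-free C57BL/6J female replicate 1) to 23 (without replicate 4). In spleens 3 became 0 without the 2 whose organ genes go against the label (32 at an unadjusted limma p below 0.05), 6 without those with line genes and 1 without both, and 26 (C57BL/6J females, median 1.30) or 0 (BALB/c, C57BL/6J males at a median of -0.21, DBA/2J at a median of -0.41) within hosts. Leaving out 1 spleen gave 1 (without tumour-free BALB/c replicate 9) to 9 (without tumour-free C57BL/6J female replicate 2), and 5 without tumour-free BALB/c replicate 7. The 1 gene called between node and spleen effects stayed at 1 or became 2 or 3 when 1 animal was left out, without tumour-free C57BL/6J female replicates 3 and 4 in turn. With the animal as a replicate block that count was 1 (median 0.35) and the tumour-free count 16 (median 0.90), so the paired fits changed no call there.

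Among single models, quantile normalisation took the genes called in tumours from 1 to 0 in 4T1 and from 3 to 1 in MC38 and TC1. It took nodes from 8 to 14 in 4T1 and from 0 to 1 in TC1, and 4T1 spleens from 2 to 5, as did subtracting array medians. Without a filter 4T1 spleens had 1. Without libraries whose organ genes go against the label, nodes had 11 in B16, 26 in LL2, 13 in MC38 and 5 in TC1, and LL2, MC38, PAN02 and TC1 spleens had 0. Without libraries with line genes, nodes had 2 in 4T1, 14 in CT26, 4 in MC38, 3 in Renca and 1 in TC1, and PAN02 spleens had 4. Without the 2 tumour-free nodes low in lymphocyte genes, nodes had 13 in 4T1, 1 in LL2 and 0 in MC38. Without all of these, nodes had 1 in B16, 16 in CT26, 1 in MC38 and 10 in Renca, and spleens 0 in LL2, MC38 and PAN02 and 1 in TC1. The causes were not tested. In Renca spleens quantile normalisation gave 5 called lower, against 0. The other alternatives stayed within 1.5 times each of these counts. Signals near the filter value of 4.3 limit what low genes can show.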
